A study of Acipenser baerii with 14 samples.

Results

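The proneural and glial bHLH (basic helix-loop-helix) transcription factors of the Siberian sturgeon, Acipenser baerii, were followed through the lateral line organs before and after damage by neomycin. Members were all assembled genes whose annotated name began with NEUROG, NEUROD, ASCL or OLIG and a digit. The rule found 18 contigs, which carried 14 gene names in 4 families, among 23448 assembled genes. A gene name here is that of the best protein match in another species, so contigs with 1 name can be copies, isoforms or pieces of 1 gene. NEUROD2 had 3 contigs of 1 assembly cluster, and OLIG2 and OLIG3 had 2 contigs each. Contigs that share a name are called below by a part of their identifier, such as OLIG2 DN100853 and OLIG2 DN99360.

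Ampullary organs (AO), which sense electric fields, neuromasts (NM), which sense water movement, and general epithelium (EP) were dissected from larvae at 10 days post hatching. AO and NM came from the underside of the head and EP from the underside of the trunk, after the receptor cells had been stained with a vital dye. The 7 groups of 2 libraries were untreated AO, untreated NM and untreated EP, and AO and NM taken 12 h and 24 h post treatment (12 hpt and 24 hpt) with 200 µM neomycin for 1 h. Neomycin is an antibiotic that kills sensory hair cells, and no treated EP group was among the samples. All larvae were of the same species and age, and no genetic change is named for any group. AO and NM of 1 condition were cut from the same larvae, tissue of several larvae was pooled, and each pool was divided for 2 RNA extractions. The spread between replicates therefore covers extraction, library and sequencing, and p-values do not speak of the variation between larvae. Each condition came from 1 group of larvae, so neomycin, time and differences between groups of larvae or dissections cannot be told apart.

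Factors of this family bind DNA as dimers with widely expressed E proteins (TCF3, TCF4, TCF12). Neurogenins commit precursor cells to a neuronal fate and switch on NEUROD genes, which act later, while neurons differentiate. OLIG2 is needed for motor neurons and oligodendrocytes in the spinal cord of mouse and chick. In the lateral line of other fishes and in the mouse ear, NEUROG1 and NEUROD1 are known for the sensory neurons that supply the hair cells, and ATOH1 for the hair cells themselves. Hair cells and electroreceptors have no axon, and the cell bodies of the sensory neurons lie in ganglia outside the organs.

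Expected read counts summed to between 7121038 and 10067958 per library, and levels are given as CPM, counts divided by a TMM-scaled library size and set to a common depth. Of the 18 contigs, 16 had enough counts to be tested, while NEUROG3 and ASCL4 did not pass that filter. A contig was called when its log2 fold change was above 1 or below -1 with an FDR under 0.01 over all 21978 genes tested (edgeR's quasi-likelihood test, adjusted by Benjamini-Hochberg). "Rose", "fell", "higher" and "lower" with a fold change refer to such calls. The SE after a fold change is that fold change divided by the square root of the test's F statistic. Where 1 group has few counts, this SE can be smaller than counting error alone and then understates the uncertainty. With 2 libraries per group, an exact permutation test of 1 contig could not go below a two-sided p of 0.333. TMM scaling left the median log2 fold change over all genes at 0.13 between untreated AO and NM and at -0.10 in the difference of the 12 hpt responses, and within 0.1 elsewhere. ATOH1 (DN99639) had mean levels of 22.9 CPM in untreated AO, 28.8 in untreated NM and 2.21 in EP. POU4F3, another hair cell factor, had 10.4, 8.78 and 1.15 CPM, so ATOH1 DN99639 and POU4F3 were above the epithelium in both labelled organs. ATOH1 contigs DN80911 (0.272, 0.295 and 0.514 CPM) and DN87586 (0.826, 0.954 and 0.417 CPM) were rarer. Neither was called in untreated AO or NM against EP. Of 40 tested contigs of a hair cell list, 18 were higher and 2 lower in untreated AO than in EP, beside 7.46% and 6.81% of all genes. In untreated NM 13 were higher and 2 lower than in EP, beside 4.06% and 9.19%. The summed level of the list was nevertheless as high in EP as in AO. In bulk tissue, fewer cells of a type and less RNA per cell cannot be told apart.

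The neurogenins came first in order of known action. NEUROG1 (TRINITY_DN100206_c0_g1) was nearly absent from untreated NM and EP, at 0.168 and 0.0657 CPM in the NM libraries and 0 and 0.0820 CPM in the EP libraries. Untreated AO had 1.16 and 1.70 CPM. After treatment, AO had 2.02 and 2.61 CPM at 12 hpt and 2.59 and 2.24 CPM at 24 hpt. Both treated AO groups were above both untreated AO libraries, but by less than the call required, with log2 fold changes of 0.68 ± 0.32 (SE; FDR 0.125) and 0.76 ± 0.31 (FDR 0.0772). NM had 1.63 and 1.76 CPM at 12 hpt and 1.80 and 2.38 CPM at 24 hpt, so NM moved from near 0 into the range of AO. The libraries of NM at 24 hpt overlapped those of both treated AO groups, and those of NM at 12 hpt overlapped untreated AO.

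NEUROG1 rested on few reads, 29 counts over the untreated AO libraries, 2 over untreated NM and 1 over EP. The ratio of untreated AO to NM was 11.5 (95% exact binomial interval 2.90 to 99.3, for counting error only), with an FDR of 0.00186 by edgeR's quasi-likelihood test. The ratio to EP was 20.8 (3.45 to 850, FDR 0.000554). In NM, the 27 counts at 12 hpt were 14.0 times the untreated level (3.51 to 121, FDR 0.000624), and the 38 counts at 24 hpt were 17.1 times that level (4.41 to 146, FDR 0.000127). Leaving out 1 library of the pair compared ended the AO against NM call in 3 of 4 cases (FDR up to 0.0243) and the NM 12 hpt call when untreated NM replicate 2 was absent (FDR 0.0108). The call of AO against EP and that of NM at 24 hpt held in every such case, but DESeq2 ended the former (adjusted p 0.0232).

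NEUROG2 (TRINITY_DN87037_c2_g1), a neurogenin of cranial ganglia and cortex in mouse, changed in both organs. AO had 1.47 and 1.11 CPM untreated, 3.01 and 2.76 CPM at 12 hpt and 5.95 and 5.18 CPM at 24 hpt. NM had 0.123 and 0.386 CPM untreated, 1.34 and 1.56 CPM at 12 hpt and 4.94 and 5.05 CPM at 24 hpt, and EP had 0.120 and 0.433 CPM. Both organs thus showed a step at each time, and NM at 12 hpt overlapped untreated AO. In AO, NEUROG2 rose by 1.20 ± 0.29 on the log2 scale at 12 hpt (FDR 0.00895) and by 2.13 ± 0.27 at 24 hpt (FDR 0.000136). In NM it rose by 2.20 ± 0.44 (FDR 0.00366) and 3.98 ± 0.37 (FDR 9.43e-06), from 4 counts over the untreated libraries. Untreated AO was higher than untreated NM by 2.0 ± 0.44 (FDR 0.00808) and higher than EP by 2.16 ± 0.46 (FDR 0.00419). With 1 library left out, both 24 hpt calls held, but the AO against NM and AO 12 hpt calls were lost with each of the 4 libraries compared (FDR up to 0.101 and 0.0629), and the EP and NM 12 hpt calls with 3 of 4 (FDR up to 0.0739 and 0.0484). NEUROG3, known from endocrine cells of the pancreas and gut, stayed between 0.166 and 1.41 CPM in the 14 libraries and was not tested.

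**Figure D1:**
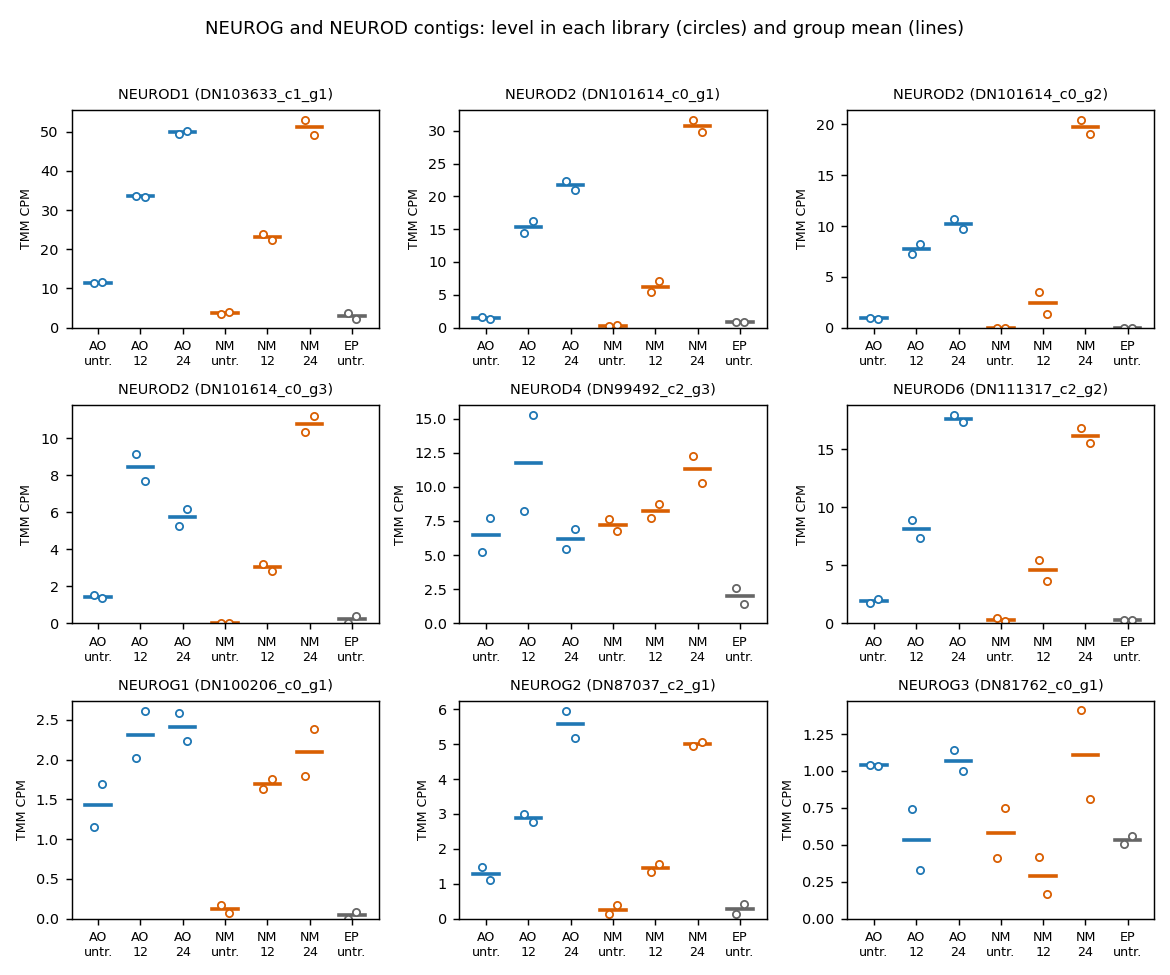
TMM-scaled CPM (linear axes from 0) of the neurogenin and NEUROD contigs, with 1 point per library and a line at the mean of the 2 libraries of each of the 7 groups. NEUROD1, NEUROD6 and the NEUROD2 contigs climb after treatment in both organs from a lower start in NM, while NEUROD4 has no such order.

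NEUROD1 (TRINITY_DN103633_c1_g1), which acts downstream of neurogenins in sensory and central neurons, had the most counts of the NEUROD contigs. Untreated AO had 11.3 and 11.6 CPM, untreated NM 3.55 and 4.0 CPM, and EP 3.62 and 2.27 CPM. NM and EP overlapped, and AO stood above both. AO then had 33.7 and 33.4 CPM at 12 hpt and 49.4 and 50.3 CPM at 24 hpt. NM had 23.9 and 22.4 CPM at 12 hpt and 53.1 and 49.2 CPM at 24 hpt. The organs were therefore apart before treatment and at 12 hpt, and their libraries overlapped at 24 hpt.

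In AO, NEUROD1 rose by 1.55 ± 0.12 on the log2 scale at 12 hpt (FDR 7.91e-06) and 2.12 ± 0.12 at 24 hpt (FDR 5.75e-07). In NM it rose by 2.6 ± 0.15 (FDR 1.14e-06) and 3.74 ± 0.14 (FDR 2.19e-08). Untreated AO exceeded untreated NM by 1.59 ± 0.16 (FDR 0.000118) and EP by 1.96 ± 0.17 (FDR 9.97e-06). With only the groups compared in the fit, the call against NM was lost (FDR 0.0129). At 24 hpt AO and NM differed by -0.04 ± 0.11. The response of AO was smaller than that of NM by 1.62 ± 0.19 at 24 hpt (FDR 0.000315). At 12 hpt the difference of the responses was -1.05 ± 0.20 with an FDR of 0.0114, and with the replicate number as a block it was -1.04 with an FDR of 0.00479. The other NEUROD1 calls held with any 1 library of the groups compared left out.

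The NEUROD2 contigs, annotated to a factor of differentiating central neurons, rose in both organs. The contig TRINITY_DN101614_c0_g1 had 1.54 and 1.28 CPM in untreated AO, 14.4 and 16.2 CPM at 12 hpt and 22.3 and 21.0 CPM at 24 hpt. In NM it had 0.224 and 0.409 CPM untreated, 5.47 and 7.04 CPM at 12 hpt and 31.6 and 29.8 CPM at 24 hpt, against 0.853 and 0.866 CPM in EP. No 2 neighbouring groups in the order of its levels overlapped, and NM passed from the lowest group to the highest. It rose in AO by 3.43 ± 0.16 on the log2 scale (FDR 3.48e-07) and 3.93 ± 0.15 (FDR 6.2e-08), and in NM by 4.05 ± 0.25 (FDR 1.82e-06) and 6.33 ± 0.20 (FDR 7.42e-09), at 12 hpt and 24 hpt. It was higher in AO than in NM before treatment, by 1.90 ± 0.39 (FDR 0.00593), a call lost with each of the 4 libraries compared left out (FDR 0.0164 to 0.0600), and at 12 hpt, by 1.27 ± 0.13 (FDR 0.000212). Untreated AO and EP differed by 0.67 ± 0.43 (FDR 0.248).

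The contigs ending g2 and g3 of the same cluster had no count in either untreated NM library, and all 3 may share reads. Contig g2 had enough counts to be tested only through treated groups, so a rise after treatment was favoured in advance. Contig g2 had 0.996 and 0.862 CPM in untreated AO, 7.23 and 8.25 CPM at 12 hpt and 10.6 and 9.70 CPM at 24 hpt, and in NM 3.52 and 1.33 CPM at 12 hpt and 20.4 and 19.0 CPM at 24 hpt. Contig g3 had 1.5 and 1.38 CPM in untreated AO, 9.17 and 7.68 CPM at 12 hpt and 5.26 and 6.19 CPM at 24 hpt, and in NM 3.18 and 2.84 CPM at 12 hpt and 10.3 and 11.2 CPM at 24 hpt. Unlike the other 2 contigs, g3 was lower in AO at 24 hpt than at 12 hpt, without overlap, a step that was not tested. Against a floor of 3 counts over the untreated NM group, NM at 24 hpt was at least 107-fold higher for g2 (FDR 4.33e-06) and at least 58.7-fold higher for g3 (FDR 2.93e-06). At 12 hpt the bounds were at least 12.4-fold (FDR 0.00106) and at least 16.2-fold (FDR 0.000169). In AO, g2 rose by 3.05 ± 0.35 (FDR 0.000302) and 3.44 ± 0.34 (FDR 8.96e-05) on the log2 scale, and g3 by 2.52 ± 0.30 (FDR 0.000201) and 1.96 ± 0.31 (FDR 0.00075), at 12 hpt and 24 hpt.

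Before treatment, AO exceeded NM at least 7.82-fold for g3 (FDR 0.00166, and 0.0141 without untreated NM replicate 2). For g2 the bound was at least 5.04-fold with an FDR of 0.0101, which passed the threshold with the replicate block (FDR 0.00942). EP had no count of g2 and 0 and 0.410 CPM of g3, so untreated AO was at least 4.57-fold higher for g2 (FDR 0.00752) and 7.18 times as high for g3 (95% interval 2.23 to 36.8, FDR 0.00546). Leaving out 1 library ended the g2 call against EP in 4 of 4 cases (FDR up to 0.0374) and the g3 call in 3 of 4 (FDR up to 0.0356). At 12 hpt g3 was higher in AO than in NM by 1.49 ± 0.28 (FDR 0.00864), a call lost in 4 of 4 such cases (FDR up to 0.0731). The value for g2 at 12 hpt was 1.73 ± 0.32 with an FDR of 0.0104, and 1.74 with an FDR of 0.00634 under the replicate block. Summed over the 3 contigs, NEUROD2 was at 3.52 to 4.04, 30.8 to 32.2 and 36.9 to 38.3 CPM in AO and 0.224 to 0.409, 11.2 to 12.2 and 60.1 to 62.4 CPM in NM, in order of time.

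NEUROD6 (TRINITY_DN111317_c2_g2), another factor of differentiating central neurons, moved with NEUROD1. AO had 1.73 and 2.11 CPM untreated, 8.89 and 7.36 CPM at 12 hpt and 17.9 and 17.4 CPM at 24 hpt. NM had 0.413 and 0.176 CPM untreated, 5.44 and 3.65 CPM at 12 hpt and 16.8 and 15.5 CPM at 24 hpt, and EP had 0.312 and 0.269 CPM. AO was above NM without overlap at all 3 times, although the organs came close at 24 hpt. NEUROD6 rose in AO by 2.08 ± 0.21 (FDR 4.03e-05) and 3.20 ± 0.19 (FDR 8.87e-07) on the log2 scale. In NM it rose by 3.79 ± 0.34 (FDR 2.25e-05) and 5.65 ± 0.28 (FDR 1.21e-07), from 5 counts over the untreated libraries. Untreated AO was higher than NM by 2.57 ± 0.39 (FDR 0.00124, and 0.0197 without untreated NM replicate 2) and higher than EP by 2.74 ± 0.41 (FDR 0.00048).

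NEUROD4 (TRINITY_DN99492_c2_g3), known from cranial sensory neurons and retina of mouse, was the NEUROD contig with no call after treatment. AO had 5.25 and 7.69 CPM untreated, 8.22 and 15.3 CPM at 12 hpt and 5.43 and 6.93 CPM at 24 hpt. NM had 7.67 and 6.74 CPM untreated, 7.73 and 8.78 CPM at 12 hpt and 12.3 and 10.3 CPM at 24 hpt, and EP had 2.56 and 1.38 CPM. The 2 AO libraries at 12 hpt stood far apart, and the value there, 0.88 ± 0.30 (FDR 0.0409), became 1.25 (FDR 0.00719) without AO 12 hpt replicate 1. Both untreated organs were above EP, AO by 1.70 ± 0.40 (FDR 0.00706) and NM by 1.87 ± 0.40 (FDR 0.00479), in 2 comparisons that share the EP libraries. The AO call was lost in 3 of 4 cases with 1 library left out (FDR up to 0.0700) and the NM call in 4 of 4 (FDR up to 0.0498). Untreated AO and NM differed by -0.16 ± 0.32.

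The 2 OLIG2 contigs, both annotated as oligodendrocyte transcription factor 2, had opposite courses. OLIG2 DN100853 (TRINITY_DN100853_c0_g1) was at 2.66 and 2.50 CPM in untreated AO, 5.22 and 4.63 CPM at 12 hpt and 9.92 and 8.90 CPM at 24 hpt. In NM it was at 0.0673 and 0.254 CPM untreated, 2.56 and 2.31 CPM at 12 hpt and 9.49 and 8.93 CPM at 24 hpt, and in EP at 0.180 and 0.293 CPM. Untreated NM and EP overlapped near 0, NM at 12 hpt overlapped untreated AO, and the organs overlapped at 24 hpt.

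From 3 counts over the untreated NM libraries, OLIG2 DN100853 reached 38 at 12 hpt and 166 at 24 hpt. The ratios were 13.1 (95% exact interval 4.16 to 66.3, FDR 0.000116) and 49.7 (16.7 to 243, FDR 5.9e-07). In AO it rose by 1.86 ± 0.22 on the log2 scale at 24 hpt (FDR 7.68e-05), while its value at 12 hpt, 0.93 ± 0.23 (FDR 0.0102), narrowly missed both thresholds. Untreated AO had 14.0 times the level of NM (4.53 to 70, FDR 0.000206) and was above EP by 3.57 ± 0.43 (FDR 0.000112). At 24 hpt AO and NM differed by 0.03 ± 0.19 (FDR 0.958). With only the groups compared in the fit, the calls of untreated AO against NM and of NM at 12 hpt were lost (FDR 0.0197 and 0.0163). All OLIG2 DN100853 calls of this paragraph held with any 1 library of the groups compared left out.

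OLIG2 DN99360 (TRINITY_DN99360_c5_g2) was highest in untreated NM, with 19.3 and 22.5 CPM. It was at 15.4 and 15.3 CPM in untreated AO and 13.7 and 19.2 CPM in EP, which overlapped. AO then had 10.7 and 12.2 CPM at 12 hpt and 7.60 and 9.86 CPM at 24 hpt, and NM had 11.9 and 15.2 CPM and 7.46 and 8.38 CPM. In both organs the treated libraries were below the untreated ones at each time. In NM it fell by 1.40 ± 0.19 on the log2 scale at 24 hpt (FDR 0.000147), a call kept with any 1 of the 4 libraries left out. In AO the value at 24 hpt was -0.82 ± 0.19 (FDR 0.00532), under the fold threshold, and it was -1.02 (FDR 0.0089) without AO 24 hpt replicate 2. The values at 12 hpt were -0.43 in AO (FDR 0.0938) and -0.63 ± 0.18 in NM (FDR 0.0234). Over the 7 group means of log2 CPM, the 2 OLIG2 contigs correlated with r = -0.93, while OLIG2 DN100853 correlated with NEUROG2 at r = 0.99, as a description over 7 points from the same libraries.

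OLIG1 and OLIG3 were rarer. OLIG1 (TRINITY_DN85078_c0_g1), a factor of oligodendrocyte maturation in mouse, was at 0.291 and 0.253 CPM in untreated AO, 0.365 and 0.460 CPM at 12 hpt and 2.39 and 2.85 CPM at 24 hpt. In NM it had 0 and 0.0657 CPM untreated, 0.0856 and 0 CPM at 12 hpt and 1.42 and 1.24 CPM at 24 hpt. Levels at 12 hpt were thus near those of untreated organs, and both organs were higher at 24 hpt. OLIG1 had enough counts to be tested only through the 24 hpt groups, so a rise there was favoured in advance. It rose by 3.09 ± 0.49 in AO at 24 hpt (FDR 0.000598). NM at 24 hpt had 21.5 times the untreated level (95% exact interval 3.51 to 886, FDR 0.00118, and 0.0111 without untreated NM replicate 1), from 24 counts against 1. AO and NM at 24 hpt did not overlap, but their difference of 0.96 ± 0.40 was not called (FDR 0.179).

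OLIG3, a factor of dorsal spinal cord and hindbrain precursors in mouse, had 2 contigs that both moved upward. OLIG3 DN90526 (TRINITY_DN90526_c0_g1) had 0.770 and 0.759 CPM in untreated AO, 3.68 and 3.84 CPM at 12 hpt and 6.21 and 6.09 CPM at 24 hpt. In NM it had 1.01 and 0.562 CPM untreated, 1.66 and 2.50 CPM at 12 hpt and 3.48 and 3.90 CPM at 24 hpt, and in EP 1.46 and 1.57 CPM. EP was above both untreated organs for this contig, by differences that were not called. It rose in AO by 2.25 ± 0.27 (FDR 0.000139) and 2.96 ± 0.26 (FDR 1.06e-05) on the log2 scale. In NM it rose by 1.47 ± 0.32 at 12 hpt (FDR 0.00547) and 2.29 ± 0.29 at 24 hpt (FDR 8.45e-05). The NM 12 hpt call was lost without untreated NM replicate 2 (FDR 0.137) or NM 12 hpt replicate 2 (FDR 0.183). At 24 hpt AO stood above NM by 0.74 ± 0.21 without overlap, which was not called (FDR 0.0522).

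OLIG3 DN86194 (TRINITY_DN86194_c0_g1) had 0.695 and 0.365 CPM in untreated AO and 2.0 and 2.78 CPM at 24 hpt, and 0.123 and 0.187 CPM in untreated NM and 2.09 and 2.25 CPM at 24 hpt. Its levels at 12 hpt, 0.770 to 1.08 CPM in AO and 0.882 to 1.23 CPM in NM, lay between. This contig, like OLIG1, had enough counts to be tested only through the 24 hpt groups, so a rise there was favoured in advance. It rose by 2.13 ± 0.40 in AO at 24 hpt (FDR 0.00171), a call lost without untreated AO replicate 2 (FDR 0.0212) or AO 24 hpt replicate 2 (FDR 0.0208). In NM the level at 24 hpt was 12.0 times the untreated one (3.81 to 60.5, FDR 0.000334), and that at 12 hpt 5.52 times (1.58 to 29.5, FDR 0.0121), which was not called.

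**Figure D2:**
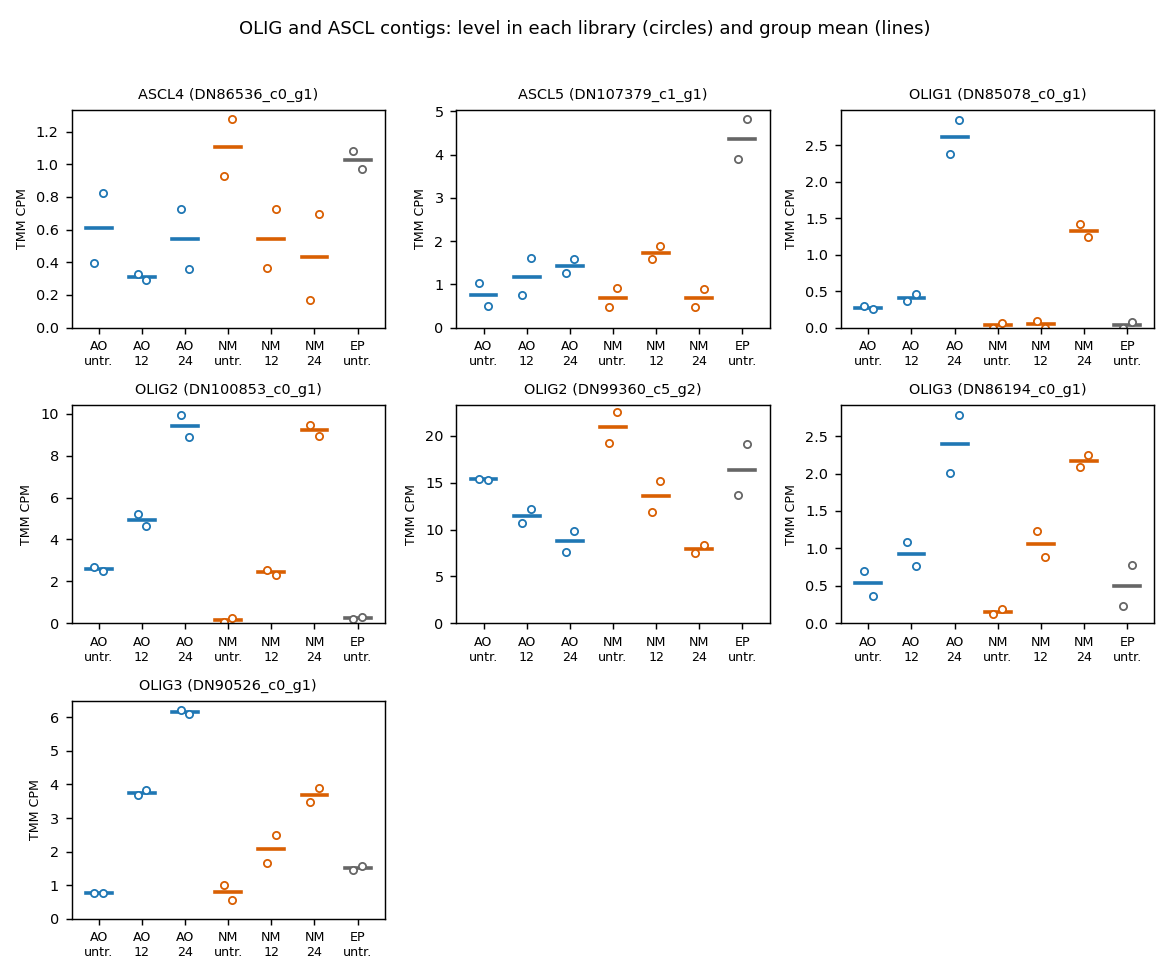
TMM-scaled CPM (linear axes from 0) of the OLIG contigs, ASCL4 and ASCL5, with 1 point per library and a line at the mean of the 2 libraries of each of the 7 groups. OLIG2 DN100853 climbs from near 0 to about the same level in NM as in AO, OLIG2 DN99360 runs downward in both organs, and ASCL5 is highest in EP.

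ASCL5 (TRINITY_DN107379_c1_g1) was highest in EP, with 3.89 and 4.82 CPM. Untreated AO had 1.02 and 0.506 CPM and untreated NM 0.469 and 0.916 CPM, and the treated organs stayed between 0.466 and 1.88 CPM. EP stood above all AO and NM libraries. Untreated AO was lower than EP by -2.46 ± 0.43 on the log2 scale (FDR 0.00131) and untreated NM by -2.67 ± 0.46 (FDR 0.00127), and each call was lost with 2 of its 4 libraries left out (FDR up to 0.0147 and 0.0133). ASCL4 ranged from 0.172 to 1.28 CPM and was not tested.

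The first set of comparisons asked how the untreated organs differ from the epithelium and from each other. In untreated AO against EP, 10 contigs were higher and 1 was lower (ASCL5) of the 16 tested, where 7.46% of all genes tested were higher and 6.81% lower. The median log2 fold change over the 16 was 1.80, beside 0.09 over all genes. In untreated NM against EP, 2 were higher, NEUROD4 among them, and 1 lower (ASCL5), beside 4.06% and 9.19% of all genes, with medians of 0.07 and 0.00. Both comparisons share the EP libraries. With 1 library left out in turn, the AO count ran from 6 to 10, with 7 without untreated AO replicate 1 and 6 without untreated AO replicate 2 or either EP library, and the NM count was 1 without untreated NM replicate 1 or EP replicate 2.

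Between untreated AO and NM, 7 contigs were higher in AO and 0 lower, beside 5.2% and 0.828% of all genes. The 7 were NEUROG1, NEUROG2, NEUROD1, NEUROD6, 2 NEUROD2 contigs and OLIG2 DN100853, so the calls lay in the neurogenin, NEUROD and OLIG families. The median over the 16 was 1.74, beside 0.13 over all genes. With only the groups compared in the fit, 0 of the 7 were called. The count was 2 without untreated NM replicate 2, and 4 without untreated NM replicate 1 or untreated AO replicate 2. NEUROD1 and OLIG2 DN100853 were the 2 that were called whichever of the 4 libraries was left out. At 12 hpt, 2 contigs were higher in AO and 0 lower, both NEUROD2, beside 2.95% and 0.764% of all genes, and the count was 1 to 3 with 1 library left out. At 24 hpt, 0 of 16 were called in either direction by edgeR's quasi-likelihood test, beside 3.11% higher and 0.378% lower over all genes. There 6 of the 16 had an unadjusted p under 0.05, beside 2683 higher and 2254 lower of all 21978 genes. Among the 6, NEUROD4 and the NEUROD2 contigs were lower in AO, and OLIG1 and OLIG3 DN90526 were higher. DESeq2 and edgeR's exact test also called 0.

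The next comparisons asked what changed after neomycin. In AO, 7 of 16 rose and 0 fell at 12 hpt, beside 9.84% and 2.21% of all genes, and 10 rose and 0 fell at 24 hpt, beside 12.6% and 3.47%. The medians over the 16 were 0.90 and 2.04, and those over all genes 0.04 and -0.01. In NM, 9 rose and 0 fell at 12 hpt, beside 11.1% and 1.32%, and 12 rose and 1 fell (OLIG2 DN99360) at 24 hpt, beside 16.1% and 5.01%. The medians there were 2.29 and 3.84, beside 0.07 and -0.03. The 2 times of an organ share its untreated libraries. All NEUROD2 contigs are among those that rose in each comparison, and as they may share reads they are not independent. The 16 are those with enough counts in some group, so contigs that were low everywhere could not add to these counts. A contig low in the untreated organs could pass through treated groups where it was high, and could then hardly be counted as fallen. OLIG1, at 0 to 0.460 CPM in every library outside the 24 hpt groups, was such a contig. So were OLIG3 DN86194, at 0.123 to 1.23 CPM in those libraries, and NEUROD2 g2, at 0 to 0.996 CPM in the untreated libraries. Their rises are counted above although the filter favoured them.

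The last comparison was of the responses themselves, that is, the log2 fold change of AO less that of NM. At 12 hpt, 1 of 16 had a smaller response in AO and 0 a larger one, beside 1.39% and 0.405% of all genes. That contig was OLIG2 DN100853, at -3.23 ± 0.58 (FDR 0.00923), and its call was lost with each of the 8 libraries compared left out (FDR 0.0107 to 0.0567). At 24 hpt, 7 had a smaller response in AO and 0 a larger one, beside 5.61% and 2.07% of all genes. NEUROD1, NEUROD2 g3 and OLIG2 DN100853 (-4.21 ± 0.52, FDR 0.000419) were called in 8 of 8 such cases, NEUROD2 g1 and NEUROD6 in 6 of 8, and NEUROG1 and NEUROD2 g2 in 0 of 8. The count was 4 without any 1 untreated library of AO or NM. The NEUROD2 contigs among the 7 may share reads and are not independent. Since the untreated libraries of both organs enter both the untreated difference and these responses, a lower start in NM is counted in each.

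**Figure D3:**
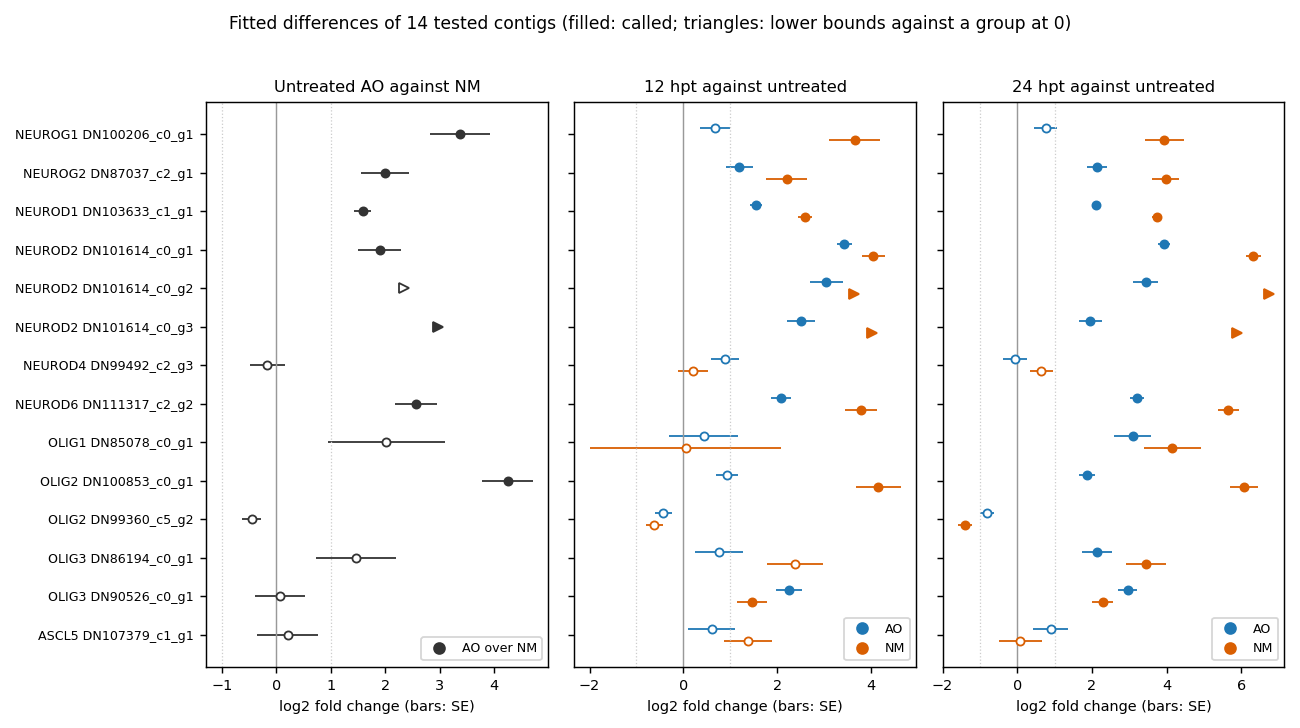
Log2 fold changes of 14 tested contigs (bars, standard error) between untreated AO and NM, and of AO (blue) and NM (orange) at 12 hpt and 24 hpt against untreated, with filled points for calls and triangles for lower bounds against a group with no count. At 24 hpt the NM points of NEUROD1 (3.74) and OLIG2 DN100853 (6.07) lie to the right of the AO points (2.12 and 1.86).

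Levels were also summed by family. The 6 NEUROD contigs summed to 22.4 to 24.9, 81.6 to 88.2 and 111.0 to 111.4 CPM in AO in order of time, and to 11.3 to 11.9, 46.0 to 49.2 and 135 to 145 CPM in NM, against 5.2 to 7.34 CPM in EP. AO was thus above NM before treatment and at 12 hpt and below it at 24 hpt, without overlap. The 3 neurogenins summed to 3.67 to 3.83, 5.70 to 5.77 and 8.42 to 9.68 CPM in AO and 0.705 to 1.20, 3.39 to 3.48 and 8.15 to 8.23 CPM in NM. The 5 OLIG contigs summed to 19.2 to 19.8, 21.0 to 21.9 and 28.1 to 30.5 CPM in AO. In NM they summed to 20.5 to 23.6, 17.5 to 20.9 and 23.9 to 24.7 CPM, as the fall of OLIG2 DN99360 ran beside the rise of the others. In each of these families the libraries of AO and NM did not overlap at any time. These sums carry no test.

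Partners and inhibitors of the family were listed separately and 33 contigs were tested. None of the 7 contigs of the E proteins TCF3, TCF4 and TCF12 was called in any of the 11 comparisons, and the TCF4 contigs had means of 46.8 to 64.7 and 8.14 to 14.0 CPM over the 7 groups. In AO against NM, untreated, 4 of the 33 were higher and 0 lower, beside 5.2% and 0.828% of all genes, with a median of 0.32. These were BHLHE22 (2.30, FDR 0.000207), NHLH2 (1.53, FDR 0.000216), a TAL1 contig (2.13, FDR 0.000352) and BHLHE23 (FDR 0.00158), and the first 3 encode bHLH factors of neurons or, for TAL1, also blood. In NM at 24 hpt 9 rose and 2 fell, with a median of 0.00, beside 16.1% and 5.01% of all genes. BHLHE22 rose by 4.86 (FDR 3.53e-08), HES5, a Notch effector that holds back proneural genes, by 2.18 (FDR 3.88e-08), TAL1 by 4.47 and NHLH2 by 2.73. ATOH1 DN99639 was among the 2 that fell in NM, at -1.55 (FDR 6.05e-05). In AO at 24 hpt 7 rose and 2 fell, beside 12.6% and 3.47% of all genes, HES5 by 1.37 (FDR 9.35e-07) among the former and ATOH1 DN99639 by 1.85 (FDR 3.81e-05) among the latter. A rarer ATOH1 contig (DN80911) was among those that rose, by 2.23 (FDR 0.00533), from a mean of 0.272 to 1.18 CPM. At 12 hpt 5 rose and 0 fell in AO, beside 9.84% and 2.21% of all genes, and 6 rose and 1 fell in NM, beside 11.1% and 1.32%. The 1 that fell in NM was ATOH1 DN99639, at -1.03 (FDR 0.00171), while its value in AO, -0.97 (FDR 0.00208), was under the fold threshold. These counts at 12 hpt are not far from the shares over all genes. HES5 had means of 22.7, 42.4 and 58.7 CPM in AO and 12.8, 21.5 and 57.8 CPM in NM. ATOH1 DN99639 does not stand for the hair cell list as a whole. Of the 40 tested contigs of that list, 7 rose and 2 fell in NM at 12 hpt, and 10 rose and 1 fell at 24 hpt. In AO 5 rose and 4 fell at 12 hpt, and 4 rose and 13 fell at 24 hpt. The shares over all genes are those given above for the same comparisons.

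A list of 51 tested contigs was drawn from Notch ligands, receptors and modifiers, genes that proneural factors are known to switch on, and others such as SOX2. Its counts are therefore not those of proneural targets alone. Between untreated AO and NM 7 were higher and 0 lower, beside 5.2% and 0.828% of all genes, among them EBF3 (1.29), MYT1 (1.44) and 2 MYT1L contigs (3.67 and 4.04), all of them factors of differentiating neurons. In AO 7 rose and 0 fell at 12 hpt, beside 9.84% and 2.21% of all genes, and 12 rose and 1 fell at 24 hpt, beside 12.6% and 3.47%. The count in AO at 12 hpt is thus near the share over all genes. In NM 13 rose and 0 fell at 12 hpt, beside 11.1% and 1.32%, and 18 rose and 1 fell at 24 hpt, beside 16.1% and 5.01%, with MYT1 up by 3.39 and EBF3 by 2.02. The medians over the list at 24 hpt were 0.17 in AO and 0.29 in NM, beside -0.01 and -0.03 over all genes. MYT1 had means of 9.81, 22.8 and 29.0 CPM in AO and 3.61, 11.5 and 38.0 CPM in NM.

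Neuronal genes at large moved between the same groups. The 41 contigs of a pan-neuronal list (19 of its 22 symbols were found) summed to 599 to 647, 1593 to 1626 and 2195 to 2234 CPM in AO, in order of time. They summed to 280 to 297, 803 to 815 and 2899 to 2929 CPM in NM and to 327 to 345 CPM in EP. No contig of the list was at 0 in any group. Of 40 tested, 29 were higher in untreated AO than in NM, beside 5.2% of all genes. At 24 hpt 35 rose in AO and 36 in NM, beside 12.6% and 16.1%. In these comparisons 0, 0 and 2 went the other way, beside 0.828%, 3.47% and 5.01%. The response at 24 hpt was smaller in AO for 27, beside 5.61%. A list of central neuron genes, such as transmitter enzymes and forebrain factors, summed to 528 to 529, 824 to 845 and 912 to 913 CPM in AO, 367 to 384, 574 to 575 and 1216 to 1218 CPM in NM and 363 to 378 CPM in EP. Of its 44 tested contigs, 17 were higher in untreated AO than in NM, 22 rose in AO and 23 rose in NM at 24 hpt, with 0, 3 and 3 the other way. The shares of all genes are those given for the pan-neuronal list. Genes of peripheral sensory neurons summed to 67.2 to 67.4, 140 to 141 and 173 CPM in AO, 47.3 to 48.8, 88.3 to 101 and 206 to 214 CPM in NM and 91.4 to 101 CPM in EP. Of 16 tested contigs of this list, 3 were higher in untreated AO than in NM and 0 lower. At 24 hpt 10 rose in AO and 11 in NM, and 0 fell in either, beside the same shares of all genes. The part of a changed amount of nervous tissue in the results for the bHLH factors was not tested.

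Markers of other tissues also moved between groups. Lens genes (24 contigs) summed to 682 CPM in untreated AO, 21.3 to 25.4 at 12 hpt and 103 to 112 at 24 hpt, and in NM to 28.2 to 28.9, 29.1 to 31.1 and 8954 to 10126 CPM, against 30.1 to 33.1 CPM in EP, with 4 contigs at 0 in untreated NM and 0 in NM at 24 hpt. Liver genes (28 contigs) summed to 53.9 to 56.6, 169 to 170 and 53.0 to 64.0 CPM in AO and 589 to 608, 522 to 560 and 38.5 to 41.0 CPM in NM. Liver genes were at 39.4 to 39.6 CPM in EP. Lens genes therefore stood out in untreated AO and in NM at 24 hpt, and liver genes in NM untreated and at 12 hpt and, less so, in AO at 12 hpt. Of 23 tested liver contigs, 16 rose in AO at 12 hpt and 0 fell, beside 9.84% and 2.21% of all genes. In untreated AO 19 were lower than in NM and 0 higher, beside 0.828% and 5.2%. Of the lens list, 19 of 23 tested contigs rose in NM at 24 hpt and 0 fell, beside 16.1% and 5.01% of all genes. In untreated AO 15 were higher than in NM and 0 lower, beside 5.2% and 0.828%. Retina genes summed to 28.6 to 29.4, 62.2 to 65.5 and 38.5 to 39.2 CPM in AO and 21.2 to 22.9, 44.8 to 51.6 and 50.3 to 51.3 CPM in NM. The part of eye, brain or liver tissue in the levels of the bHLH factors was not tested. Leaving the NM 24 hpt group out of the fit, a choice made after the lens levels were seen, left the counts of untreated AO against NM and of AO at both times within 1.5 times of those given, and those it moved further are in the closing part.

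**Figure D4:**
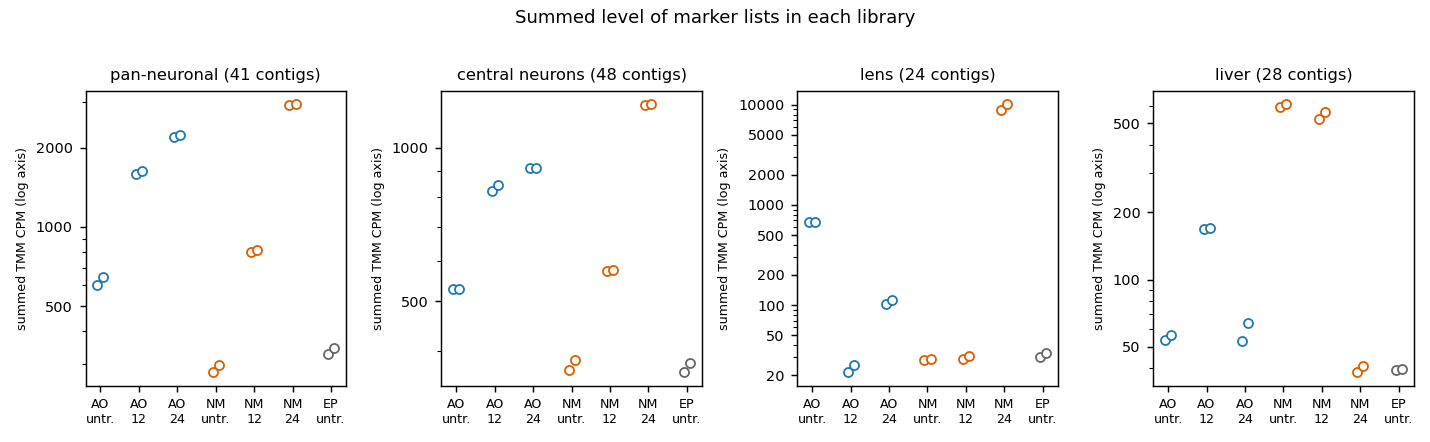
Summed TMM-scaled CPM (log axis) of the pan-neuronal, central neuron, lens and liver lists in each library, by group. The neuronal sums are lowest in untreated NM and EP and highest in NM at 24 hpt, and the lens sum of NM at 24 hpt, 8954 to 10126, is far above all other groups.

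Set against the pan-neuronal sum of the same library, the members fell into unlike courses. OLIG2 DN100853 was at 4.11 to 4.18, 2.91 to 3.21 and 4.06 to 4.44 CPM per 1000 pan-neuronal CPM in AO, so its ranges before treatment and at 24 hpt overlapped. In NM it was at 0.226 to 0.909 untreated and 2.88 to 3.14 and 3.08 to 3.24 after treatment, so there the ratio of untreated NM was below that of both treated groups. NEUROD1 was at 17.5 to 19.3, 20.7 to 20.9 and 22.1 to 22.9 in AO and 11.9 to 14.3, 27.9 to 29.3 and 17.0 to 18.1 in NM. NEUROD1 thus had its highest ratio in NM at 12 hpt.

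NEUROD2 g1 was at 2.14 to 2.38 per 1000 in untreated AO and 8.83 to 10.2 and 9.56 to 10.0 after treatment, and at 0.754 to 1.46, 6.71 to 8.77 and 10.3 to 10.8 in NM. Its ratio was higher in every treated library than in any untreated library of either organ. NEUROG1 was at 1.79 to 2.83, 1.24 to 1.64 and 1.02 to 1.16 in AO and 0.235 to 0.565, 2.0 to 2.2 and 0.615 to 0.821 in NM. In AO its ratio therefore ran down over time although its CPM did not. OLIG2 DN99360 was at 23.8 to 25.6, 6.58 to 7.63 and 3.4 to 4.49 in AO and 64.9 to 80.6, 14.6 to 18.9 and 2.55 to 2.89 in NM. For this contig the ratio ran down over time in both organs. The ratios carry no test.

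**Figure D5:**
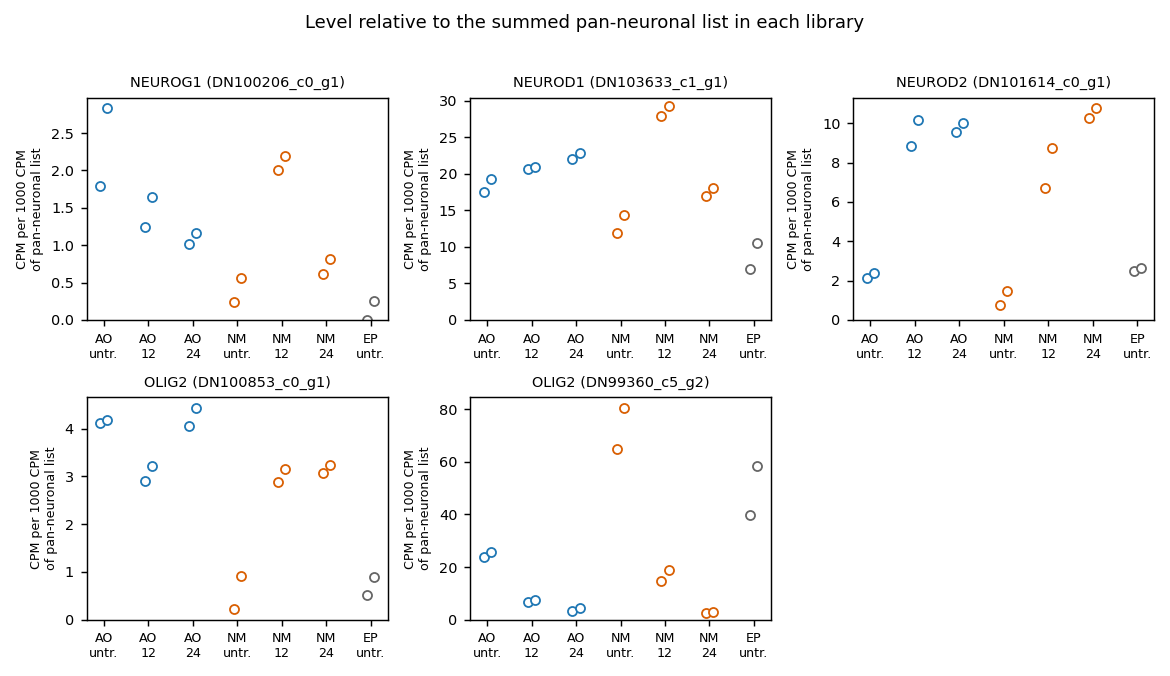
CPM of 5 contigs per 1000 CPM of the pan-neuronal list, with 1 point per library, by group. The ratio of OLIG2 DN100853 stays between 2.91 and 4.44 in AO, that of NEUROD2 g1 is higher in all treated libraries than in untreated AO and NM, and that of OLIG2 DN99360 runs down after treatment.

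Glial genes moved in both directions while OLIG2 DN100853 rose. The glial list, with myelin genes, SOX10 and glial transporters, summed to 1737 to 1745, 1600 to 1679 and 2167 to 2249 CPM in AO and 2143 to 2215, 1197 to 1285 and 2060 to 2195 CPM in NM, against 934 to 951 CPM in EP. In NM at 12 hpt, where OLIG2 DN100853 rose, 4 of 29 tested glial contigs rose and 7 fell, beside 11.1% and 1.32% of all genes. The count that rose is thus near the share over all genes. There MBP, the myelin basic protein of oligodendrocytes and Schwann cells, fell by 1.87 on the log2 scale (FDR 9.56e-08). MBP had means of 152, 132 and 186 CPM in AO and 330, 90.0 and 202 CPM in NM. SOX10, a factor of Schwann cells and oligodendrocytes, had means of 48.6, 23.1 and 21.4 CPM in AO and 61.7, 24.1 and 24.4 CPM in NM. MOG, a marker of central myelin, stayed at means of 0.167 to 0.897 CPM. S100B, of astrocytes and other glia, rose in NM by 1.38 at 12 hpt and 3.67 at 24 hpt and had means of 17.4, 75.3 and 122 CPM in AO. At 24 hpt 6 glial contigs rose and 1 fell in AO, beside 12.6% and 3.47% of all genes, and 9 rose and 7 fell in NM, beside 16.1% and 5.01%.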

How the data were processed

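The authors trimmed reads with Trimmomatic 0.38 (base calls by CASAVA 1.8.2, per the labels), made 1 Trinity assembly from the pooled reads, annotated its contigs by Swiss-Prot and sterlet proteins, and deposited RSEM expected counts per assembled gene and library, not scaled to depth. The RSEM version is not given in the sources used here. RSEM shares reads between contigs that match equally, so contigs of 1 gene name are not independent. No strand setting is stated, so antisense reads cannot be told apart. Of 23448 genes, 801 had no annotation, and 0 columns of values were left unused.

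The expected counts as deposited, rounded to whole numbers, were fitted in R 4.3.3 by edgeR 4.0.16 and limma 3.58.1 (TMM, filterByExpr by group, quasi-likelihood fit of 7 group means to 14 libraries, 21978 genes, common biological coefficient of variation 0.121). The fit was tested on simulated data. Groups came from the labels. Totals of 7121038 to 10067958 counts limit rare contigs, and the 95% exact intervals and the floor of 3 counts per group take in counting error alone. Replicates of a group differed by 7.36 to 10.8 times pure counting noise (chi-square per degree of freedom).

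Members and lists were chosen with earlier results of these data known. The results of 2 members are counted but not reported here singly. Every other member is named, and of each list at most 4 contigs per comparison, those called with the smallest FDR, plus defining markers. Replicates with the same number deviated together in 21 of 21 pairs of groups (r of 0.162 to 0.269), so the number, which comes from the labels, was also fitted as a block, although the sources name no batch it could stand for. The alternatives were this block, DESeq2 1.42.0, other scalings and filters, edgeR's exact test, fits of only the groups compared, and each library left out. Sequences and positions were not analysed here.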

Additional observations from a re-analysis of the deposited data

Results flagged for a closer look

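The responses of AO and NM after neomycin differed by the test of the difference for 1 contig at 12 hpt and 7 at 24 hpt. The value tested was the log2 fold change of AO less that of NM (edgeR's quasi-likelihood test, adjusted by Benjamini-Hochberg). At 12 hpt the value was -3.23 ± 0.58 (SE) for OLIG2 DN100853 (FDR 0.00923). At 24 hpt it was -4.21 ± 0.52 for the same contig (FDR 0.000419), -1.62 ± 0.19 for NEUROD1 (FDR 0.000315), -2.40 ± 0.34 for NEUROD2 g1 (FDR 0.000913), -2.44 ± 0.42 for NEUROD6 (FDR 0.00285) and -3.18 ± 0.65 for NEUROG1 (FDR 0.00683). NEUROD2 g2 and g3 had fitted values of -6.99 (FDR 0.00531) and -7.60 (FDR 0.000907), which depend on the prior count because untreated NM had no count, and are not bounds. Each of these contigs was higher in all treated libraries of an organ than in its untreated ones, so by these levels no direction was opposite. In AO, however, the changes of NEUROG1 at 24 hpt (FDR 0.0772) and OLIG2 DN100853 at 12 hpt (FDR 0.0102) were not called. The untreated libraries enter these differences, so a lower start in NM is counted in them. The pan-neuronal sum ran in the same order, from 599 to 647 CPM to 2195 to 2234 CPM in AO and from 280 to 297 CPM to 2899 to 2929 CPM in NM, and its part in these differences was not tested. All groups had 2 libraries, too few to look for single outlying samples.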

How the results depend on the processing

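No call changed direction under any alternative run. Over all alternatives, 179 counts of called contigs stayed within 1.5 times of the value given, 44 were below that range and 3 above. With the replicate block, 4 of 176 calls changed, all of them gained, 3 of which are given in the text, and the difference of the 12 hpt responses had 2 calls in place of 1; it changed no other call. With only the groups compared in the fit, untreated AO against EP had 5 calls (11 in the full fit), untreated AO against NM 0 (7), NM at 12 hpt 5 (9), AO against NM at 12 hpt 0 (2) and the difference at 12 hpt 0 (1). DESeq2 gave 7 for untreated AO against EP and 0 for the difference at 12 hpt, and the fit without the NM 24 hpt group, chosen after seeing the data, gave 7, 0 and, for AO against NM at 12 hpt, 1. By DESeq2 the NEUROG1 call of untreated AO against EP had an adjusted p of 0.0232, that of untreated AO against NM 0.0238 and that in the difference at 24 hpt 0.0727. The cause of these changes was not tested, and the reduced fits also rest on fewer libraries. With each of the 14 libraries left out in turn, the counts ran from 6 to 10 (AO against EP), 1 to 3 (NM against EP), 2 to 7 (AO against NM), 6 to 7 (AO, 12 hpt), 9 to 10 (AO, 24 hpt), 7 to 9 (NM, 12 hpt), 11 to 13 (NM, 24 hpt), 1 to 3 (AO against NM, 12 hpt), 0 to 0 (AO against NM, 24 hpt), 0 to 2 (difference, 12 hpt) and 4 to 7 (difference, 24 hpt); where this leaves 1 library in a group, it is assumed to vary like the others. The difference comparisons were not run with the exact test, nor those of NM at 24 hpt without that group. Depth limits the untreated NM levels of NEUROG1, OLIG1, OLIG2 DN100853, OLIG3 DN86194 and NEUROD2 g2 and g3, which rest on 3 counts or fewer. Those of NEUROG2, NEUROD2 g1 and NEUROD6 rest on 4, 5 and 5 counts, so their fold changes in NM also start from few reads.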

Other observations

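The contigs whose group means ran most like those of the main members were taken among 20956 annotated contigs by Pearson's r over 7 group means of log2(CPM + 0.5), as a description with no p, over points that share libraries and depth. For NEUROG1 they were CCDC87 (0.992), CCDC83 (0.991), DNAH3 (0.990), DNAH1 (0.989) and CCDC92 (0.988), of which the DNAH genes encode dynein chains of motile cilia. For OLIG2 DN100853 they were CKMT1, SNAP91, NR2E1 and SALL3 (each 0.996) and PMFBP1 (0.995), where SNAP91 is a synaptic protein and NR2E1 a factor of neural stem cells. For NEUROD1 they were LCA5L (0.997), CKB (0.996), RLN3 (0.996), GOLGA7B (0.995) and SHISA6 (0.994). For OLIG2 DN99360 they were BPNT1, ANXA11, TMEM173 and SH3YL1 (each 0.995) and GGNBP2 (0.993).

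Lists of other cell types in the dissected pieces gave these sums. Proliferation genes were at 1694 to 1712, 1226 to 1315 and 1065 to 1109 CPM in AO, in order of time. In NM they were at 1734 to 1818, 1330 to 1402 and 1006 to 1078 CPM. At 12 hpt 1 of 24 tested contigs was lower in AO and 0 in NM, beside 2.21% and 1.32% of all genes. There 0 were higher in either organ, beside 9.84% and 11.1%. At 24 hpt 2 of 24 tested contigs were lower in AO and 3 in NM, beside 3.47% and 5.01% of all genes. None was higher, beside 12.6% and 16.1%. Epidermal genes were at 20512 to 21263 CPM in untreated AO and 16292 to 16355 CPM at 24 hpt, and at 25630 to 26266 and 12948 to 13552 CPM in NM. Olfactory genes were at 102 to 106 CPM in untreated AO, 52.5 to 59.0 CPM in untreated NM and 109 to 132 CPM in EP. The hair cell list was at 823 to 878 CPM in untreated AO, 617 to 629 CPM in untreated NM and 805 to 852 CPM in EP. At 12 hpt it was at 949 to 990 CPM in AO and 940 to 970 CPM in NM. At 24 hpt it was at 590 to 598 and 620 to 633 CPM. Of its 40 tested contigs, 18 were higher and 2 lower in AO than in EP (median log2 fold change 1.59), beside 7.46% and 6.81% of all genes. In NM 13 were higher and 2 lower than in EP (median 0.84), beside 4.06% and 9.19%.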
